A study of Mus musculus with 21 samples.

Results

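Mitochondrial ribosomal protein genes were followed through cultured mouse epithelial cells under TGF-b1 (transforming growth factor beta 1), with or without an siRNA against FoxQ1. They were taken as the genes whose array annotation gives a symbol that starts with Mrpl or Mrps followed by a digit, in both value tables of the series. This gave 74 genes, 47 Mrpl and 27 Mrps, of the 12393 genes measured in both tables. The probe set with the highest mean signal stood for each gene, and for 61 of the 74 genes this was the same probe set in both tables. Mrps10 and Mrps27 were measured in the first table only and are given apart.

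The study measured gene expression on Affymetrix mouse arrays, in 12 arrays of NMuMG cells and 9 arrays of NM18 cells, with 3 arrays a group. NMuMG is a mouse mammary gland epithelial line, and all its groups received 200 µM 4-thiouridine (4sU), a uridine analogue that labels RNA as it is made, for 2 h. Control cells received 4sU alone and treated cells 4sU with 5 ng/ml TGF-b1 for the same 2 h. From each, total RNA and the 4sU-labelled fraction pulled out with a mercury reagent, called newly made RNA here, were hybridised, which gave 4 groups. All NM18 groups were transfected with 25 nM siRNA and harvested after 48 h. They were scrambled control siRNA alone, control siRNA with 5 ng/ml TGF-b1 added after 8 h for the last 40 h, and FoxQ1 siRNA with the same TGF-b1. There was no FoxQ1 siRNA group without TGF-b1. A free-text note on array 1 of control siRNA alone also speaks of TGF-b1, but its title and treatment label name none and were followed. Replicates are described as biological. All values are log2 array signals and not amounts of RNA per cell. In RNA from whole cultures, fewer expressing cells and less RNA per cell cannot be told apart.

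Mitochondria keep their own ribosome, the mitoribosome, which makes the few core subunits of the respiratory chain that mitochondrial DNA encodes. Its ribosomal RNAs come from mitochondrial DNA, while every one of its proteins is encoded in the nucleus, made in the cytosol and imported. The proteins of the large subunit carry Mrpl symbols and those of the small subunit Mrps symbols, with known exceptions: Mrps18a and Mrps30 proteins sit in the large subunit, and the Mrps36 protein is now regarded as a part of a tricarboxylic acid cycle enzyme complex. Some proteins descend from bacterial ribosomal proteins and others were added in mitochondria. By the list used here 41 of the 74 genes have a bacterial counterpart and 33 do not.

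Promoter sequence was examined because nuclear genes for mitochondria are textbook targets of nuclear respiratory factor 1 (NRF1), of the ETS family protein GABP (nuclear respiratory factor 2) and of YY1. RefSeq promoters (GRCm38.p6, 250 bases before to 50 after the start site) were found for 65 of the 74 genes. The stretches of 100 bases below are from the gene with the largest fall under FoxQ1 siRNA (Mrpl33), a gene with one of the largest falls under TGF-b1 in NM18 cells (Mrpl18), the gene that rose there (Mrps12) and a gene with both ETS and YY1 letters (Mrps18a). They run 5′ to 3′ on the strand of the gene, and capitals mark every match to the motifs searched.
Mrpl33, chr5:31613881-31613980, plus strand: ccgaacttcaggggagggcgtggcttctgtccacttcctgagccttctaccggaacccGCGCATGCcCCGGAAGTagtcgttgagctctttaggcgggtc
Mrpl18, chr17:12916242-12916341, minus strand: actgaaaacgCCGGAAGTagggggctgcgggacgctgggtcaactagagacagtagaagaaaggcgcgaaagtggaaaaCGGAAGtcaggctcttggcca
Mrps12, chr7:28741792-28741891, minus strand: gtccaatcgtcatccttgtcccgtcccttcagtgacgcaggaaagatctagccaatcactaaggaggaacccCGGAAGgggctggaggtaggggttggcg
Mrps18a, chr17:46110934-46111033, plus strand: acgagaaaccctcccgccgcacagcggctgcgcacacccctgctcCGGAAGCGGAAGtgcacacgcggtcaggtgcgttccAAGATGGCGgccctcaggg
In Mrpl33 an NRF1 core on the other strand, starting at position -12 from the start site, stands next to an ETS site that starts at -3. In Mrpl18 the ETS site starts at -240 and a further ETS core at -171. In Mrps12 an ETS core starts at 3, just past the start site. In Mrps18a a pair of ETS cores start at -25 and -19 and a YY1 site at 12.

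Motifs were counted on both strands in the whole promoter windows, beside all 17491 genes with such a promoter. The ETS core CGGAAG was found in 37 of the 65 promoters (56.9%) against 23.5% of all promoters. The longer ETS site CCGGAAGT, which contains that core, was in 11 (16.9% against 5.69%). The NRF1 core GCATGCGC was in 8 (12.3% against 3.93%): those of Mrpl10, Mrpl17, Mrpl22, Mrpl32, Mrpl33, Mrpl39, Mrpl9 and Mrps18b. The YY1 site AAGATGGCG was in 7 (10.8% against 2.14%). A TATA box, TATAAA, was in 5 (7.69% against 14.8%), and the E-box CACGTG was in 5 (7.69% against 8.91%). For 22 of the 65 genes (33.8%) another gene started on the opposite strand within the 1000 bases upstream, against 8.48% of all protein-coding genes. Mrpl46 and Mrps11 face each other in this way, and so do Mrpl43 and Twnk, the mitochondrial DNA helicase gene, and Mrps12 and Sars2, the mitochondrial seryl-tRNA synthetase gene. A motif match is a description of letters, not of binding.

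Both lines showed the genes at high signal. All 74 lay above the median gene of either table, 52 of 74 above the upper quartile of NMuMG genes and 62 of 74 above that of NM18 genes. Mean signals per gene ran from 6.89 (Mrpl54) to 11.33 (Mrps14) in NMuMG and from 8.63 (Mrpl37) to 11.70 (Mrpl43) in NM18 arrays. Mrps14 and Mrpl39 were among the 3 highest signals in both tables, Mrpl51 and Mrpl43 in one each, and Mrps11, Mrpl14, Mrps5 and Mrpl1 were among the lowest with Mrpl54 and Mrpl37. Probe sets differ in how strongly they hybridise, so this order is not an order of RNA amounts.

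Some facts of the whole series touch these results. Epithelial markers were largely present: 6 of 7 were above the median gene in NMuMG cells (Cldn4 was not) and 5 of 7 in NM18 cells (Epcam and Cldn4 were not). Of 6 fibroblast markers 1 and 0 were above it in NMuMG and NM18, and their mean ran from 5.50 to 6.02 and from 5.93 to 6.14 over the groups. Of 6 leukocyte markers 1 was above it in either line, and their mean ran from 5.99 to 6.33 and from 7.02 to 7.19. Array 3 of control total RNA stood apart for the genes described here: it was the highest of its 3 arrays for 70 of the 74, with a median of 10.29 against 9.90 and 9.80. Array 1 of control newly made RNA was the lowest of 3 for 53 genes and array 1 of TGF-b1 newly made RNA for 51. FoxQ1 siRNA lowered its target: Foxq1 read 7.57, 8.09 and 7.97 with FoxQ1 siRNA and 9.08, 9.04 and 9.33 with control siRNA, both with TGF-b1 (change -1.27 ± 0.16, SE; limma adjusted p = 0.000291).

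**Figure D1:**
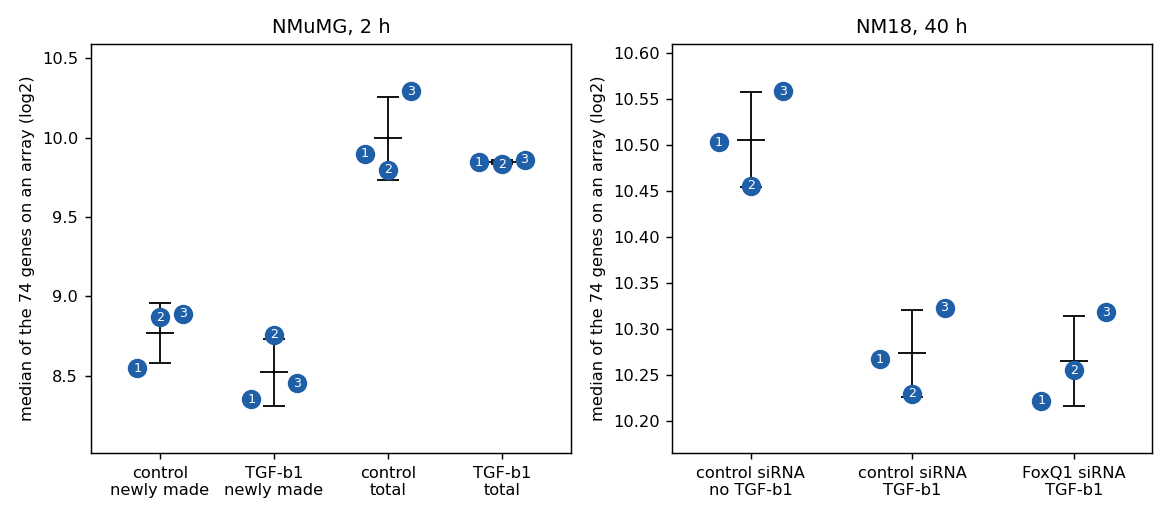
Median log2 signal of the 74 mitochondrial ribosomal protein genes on each array (points, numbered by replicate) with the mean and SD of the 3 array medians of a group (lines), NMuMG left and NM18 right, on axes of different range. Newly made RNA lies between 8.35 and 8.89 and total RNA between 9.80 and 10.29. The untreated NM18 arrays lie from 10.46 to 10.56, above all arrays with TGF-b1.

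The first comparison set newly made against total RNA within control NMuMG cells. When RNA is labelled for a fixed time, this ratio is used as a readout of turnover, since RNA that is made and lost slowly holds a smaller share of the newly made fraction. Mitochondrial ribosomal protein RNAs were mostly lower in the newly made fraction: 67 of the 74 genes were lower and 2 higher at a limma adjusted p under 0.05. Among all 18193 genes 26.8% were lower and 17.2% higher, and among those above the median signal 43.0% were lower and 29.4% higher. The median over the 74 genes was -1.23 on the log2 scale, and over all genes -0.08. Every Mrps gene that passed the test was lower (24 of 27), as were 43 of 47 Mrpl genes. Medians were alike for Mrpl (-1.23) and Mrps genes (-1.24), and for genes with (-1.23) and without (-1.23) a bacterial counterpart.

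The gene with the largest difference was Mrpl4, whose protein lines the exit tunnel of the large subunit. Mrpl4 read 9.91, 9.75 and 9.96 in total RNA and 7.37, 7.37 and 7.44 in newly made RNA, a difference of -2.48 ± 0.11 (SE; limma adjusted p = 7.06e-10), or 5.58-fold. All newly made arrays lay far below all total arrays. Mrpl13, a large subunit protein of bacterial descent, read 11.00, 11.00 and 11.63 in total and 8.61, 9.01 and 9.14 in newly made RNA (-2.29 ± 0.18). Mrpl17 read 10.32, 10.18 and 10.62 against 8.01, 8.35 and 8.19 (-2.19 ± 0.13). In both genes the groups were well apart. Mrps15, a small subunit protein that binds its ribosomal RNA, read 10.41, 10.22 and 10.63 in total and 8.03, 8.34 and 8.54 in newly made RNA (-2.11 ± 0.15). Mrpl23, another tunnel protein, read 9.77, 9.67 and 10.39 in total RNA and 7.85 ± 0.17 (SD, n = 3) in newly made RNA, a difference of -2.09 ± 0.17 (SE). These genes did not overlap between fractions either, and over the 74 genes the newly made arrays lay wholly below the total arrays for 66, against 31.4% of all genes.

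Mrpl1 and Mrpl50 were called higher, on the probe sets used for them. Mrpl1, the protein of the mobile L1 stalk through which spent tRNA leaves, read 7.36, 7.33 and 7.74 in total RNA and 7.97 ± 0.22 (SD, n = 3) in newly made RNA (difference 0.50 ± 0.14, SE; limma adjusted p = 0.00731). Mrpl50, a mitochondria-specific large subunit protein, read 9.80, 9.64 and 9.70 in total and 9.87, 10.30 and 10.47 in newly made RNA (0.50 ± 0.15, adjusted p = 0.0145). In both genes the newly made arrays were the higher, by a margin that was narrow at its closest. Both calls depended on the probe set. Of the further probe sets of Mrpl1, 1 was lower (-0.54 ± 0.20, SE) and 1 higher (0.42 ± 0.12), and the further probe set of Mrpl50 was not called (-0.11 ± 0.16). With all probe sets of a gene averaged, neither passed (0.13 for Mrpl1, limma adjusted p = 0.310, and 0.20 for Mrpl50, adjusted p = 0.164). The Mrpl50 call was also lost without control newly made array 2 (adjusted p = 0.0546) or 3 (0.0790), or control total array 2 (0.0510). The 5 genes that did not pass the test were Mrpl44 (-0.41), Mrpl9 (-0.15), Mrps2 (0.10), Mrps31 (0.26) and Mrps5 (0.36). In each of them the arrays of the fractions overlapped.

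Genes with particular roles followed the majority. Mrpl12, the stalk protein that recruits translation factors, differed by -1.71 ± 0.12, and Mrps12, which helps form the decoding site, by -1.10 ± 0.17. The Mrps18 paralogs differed by -1.48 ± 0.15 (Mrps18a), -1.17 ± 0.14 (Mrps18b) and -1.24 ± 0.12 (Mrps18c). Mrps30 differed by -0.85 ± 0.14 and Mrps36 by -1.36 ± 0.13, all with SE and all called lower by limma. Mrpl46 and Mrps11, which share a promoter region, differed by -1.03 ± 0.15 and -1.20 ± 0.13. Mrps10 and Mrps27, measured in NMuMG only, were lower by limma too, at -0.84 ± 0.13 and -1.15 ± 0.14.

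The same comparison in TGF-b1-treated cells used 6 other arrays. There 66 of the 74 genes were lower and 2 higher (limma; 26.8% and 18.3% of all genes, and 42.1% and 31.0% of those above the median signal), with a median of -1.26. Mrpl4 differed by -2.64 ± 0.11 there, Mrpl13 by -2.38 ± 0.18, Mrpl17 by -2.31 ± 0.13, and Mrps15 and Mrps6 by -2.22 ± 0.15 and -2.22 ± 0.17. The genes that were higher were again Mrpl1 (0.51 ± 0.14) and Mrpl50 (0.59 ± 0.15). Here too a further probe set of Mrpl1 was lower (-0.69 ± 0.20), and with probe sets averaged Mrpl1 did not pass (0.081, limma adjusted p = 0.536) while Mrpl50 did (0.28, adjusted p = 0.0461). All 66 genes lower in treated cells were among the 67 lower in control cells. Across the 74 genes the differences in control and treated cells correlated at r = 0.988 (Spearman 0.983), and across all genes at 0.969 (Spearman 0.910). The points share probe sets and 1 normalization, and genes are not independent replicates.

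**Figure D2:**
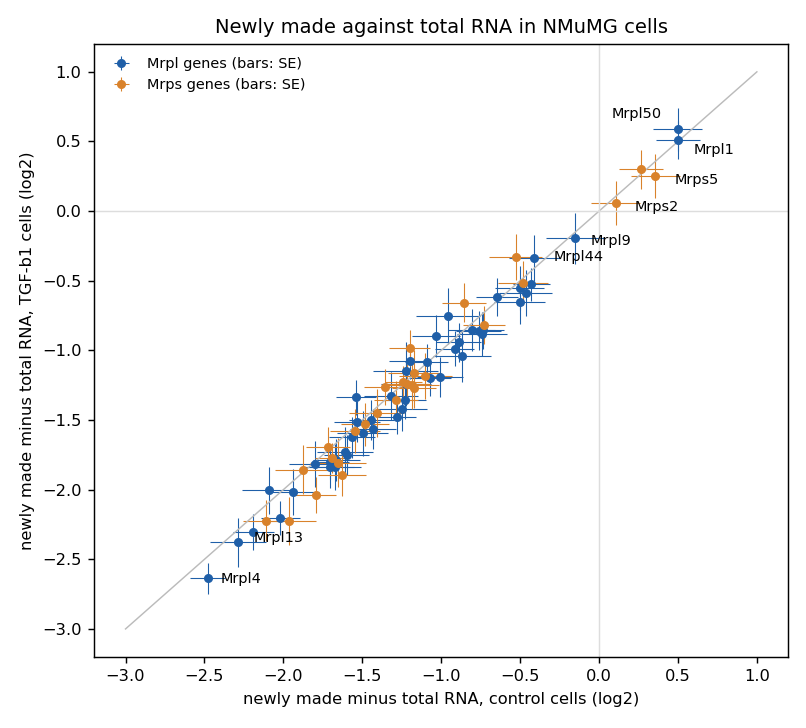
Newly made minus total RNA (log2) of each of the 74 genes in control (horizontal) and TGF-b1-treated NMuMG cells (vertical), with SE bars and the line of equal values. Most genes lie between -0.5 and -2.5 on both axes, Mrpl4 lowest, and Mrpl1 and Mrpl50 lie above 0 on both.

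Other gene groups of mitochondrial gene expression split in this comparison. In control cells the elongation factor gene Tufm (-1.63 ± 0.12, SE) and 7 more of 13 mitochondrial translation factors were lower and 0 higher by limma. Of 19 aminoacyl-tRNA synthetase genes 11 were lower and 3 higher, and of 24 mitoribosome assembly factors 10 were lower and 6 higher, with Gtpbp10, an assembly GTPase, at 1.41 ± 0.13. Of 11 regulators of nuclear genes for mitochondria 7 were higher and 1 lower, among them Nrf1 itself (1.00 ± 0.11) and Gabpb1 (0.91 ± 0.12), a GABP subunit gene. Of 46 cytosolic ribosomal protein genes 40 were lower and 1 higher (median -1.39), and of 94 nuclear genes of the respiratory chain 83 were lower and 2 higher (median -1.60). Differences between these lists were not tested.

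This result depended on which probe set stood for a gene. In control cells, 79 further probe sets of 41 of the genes were available, of which 31 were lower and 18 higher. Only 42 of the 79 had the direction of the probe set used. The median over the 79 was -0.11, close to that of all genes. For 16 genes, Mrpl13, Mrps15 and Mrpl1 among them, a further probe set was called in the opposite direction to the one used. With the mean of all probe sets of a gene, 62 genes were still lower and the median was -0.86. Without array 3 of control total RNA, the array that stood apart, 62 were lower and 4 higher. With each array centred on its median, the median of all genes moved from -0.08 to 0.03 and the share of higher genes among all called genes from 39.1% to 48.7% in control cells (40.5% to 50.3% with TGF-b1). The median of the 74 genes was then -1.12 in control cells, and the Mrpl and Mrps genes lay at 64 lower and 4 higher. In that fit 4035 of all 18193 genes were lower and 3828 higher. Shares of all genes called with probe sets averaged or without control total array 3 are not given here, so those counts are not set against them.

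TGF-b1 for 2 h was next compared with control in newly made RNA, which asks for early changes in RNA output. By limma 0 of the 74 genes passed, where 3.35% of all genes rose and 2.79% fell. An unadjusted p under 0.05 was seen for 11 of the 74, all of them falls. Over all genes that share was 15.8% in either direction, and the share of falls alone is not given here. Values were below 0 for 70 of the 74 genes, with a median of -0.22 against -0.01 over all genes. The 79 further probe sets of 41 of the genes had a smaller median of -0.08, and 55 of the 79 had the sign of the probe set used. Mrps35, a mitochondria-specific small subunit protein, had the smallest p: it read 7.38, 7.76 and 7.84 in control and 7.20, 7.31 and 7.29 in TGF-b1 arrays (-0.39 ± 0.14, SE; limma adjusted p = 0.138). Mrps28 read 8.03, 8.33 and 7.96 against 7.86, 7.74 and 7.63 (-0.36 ± 0.13, adjusted p = 0.139), and Mrps6 9.46, 10.21 and 9.76 against 9.13, 9.55 and 9.36 (-0.46 ± 0.17, adjusted p = 0.167). The groups did not overlap in Mrps35 and Mrps28 and overlapped in Mrps6. In 12 of the 74 genes all TGF-b1 arrays lay below all control arrays, against 9.05% of all genes.

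Array numbers mattered for this count, as same-numbered arrays of the newly made groups deviated together (r = 0.339 to 0.732). The numbering was not the only such link: control array 3 and TGF-b1 array 2 correlated at 0.347. A fit with the replicate number as a block over both kinds of RNA called 0 of the 74 genes. That block takes the numbers as shared between newly made and total RNA, where same-numbered pairs correlated as low as 0.022 (control) and 0.012 (TGF-b1). Blocks of the replicate number fitted separately for newly made and total RNA, an alternative added once the data had been seen, called 8 of the 74 lower: Mrpl22, Mrpl36, Mrpl45, Mrpl50, Mrps28, Mrps34, Mrps35 and Mrps6. Without array 1 of control newly made RNA, 5 were called lower. The shares of all genes called in these fits are not given here, so the counts are not set against them.

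In total RNA at 2 h 0 of the 74 genes passed by limma, where 1.46% of all genes rose and 1.02% fell. An unadjusted p under 0.05 was seen for 2 of the 74, against 9.63% of all genes in either direction. Values were below 0 for 72 of the 74, with a median of -0.15 against -0.03 over all genes. Over the 79 further probe sets the median was -0.09, and 57 of the 79 had the sign of the probe set used. Mrpl50 had the smallest p and read 9.80, 9.64 and 9.70 in control and 9.29, 9.44 and 8.98 in TGF-b1 arrays (-0.47 ± 0.15, SE; limma adjusted p = 0.186). Its groups did not overlap, as in 7 of the 74 genes with all TGF-b1 arrays lower (10.7% of all genes). Mrps35 read 8.78, 8.82 and 9.22 against 8.61, 8.66 and 8.60 (-0.32 ± 0.14, adjusted p = 0.452), and Mrps31 8.76, 8.69 and 9.09 against 8.61, 8.60 and 8.51 (-0.27 ± 0.14, adjusted p = 0.605), also without overlap. The shift over the 74 genes rested on control array 3: without it the median was -0.016, with 43 genes below 0 and 31 above. With same-numbered arrays paired by the separate blocks, 1 gene, Mrpl50, was called lower.

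The test of whether the 2 h effect differed between newly made and total RNA called 0 of the 74 genes by limma (0.0110% of all genes were higher and 0.0550% lower in it). An unadjusted p under 0.05 was seen for 0 of the 74, against 2.92% of all genes in either direction. The smallest p values belonged to Mrps28 (-0.24 ± 0.18), Mrps34 (-0.26 ± 0.22) and Mrps11 (0.22 ± 0.18), with SE. Among regulators of nuclear genes for mitochondria, Ppargc1a, which encodes the coactivator PGC-1alpha, fell by 1.25 ± 0.14 on the log2 scale in newly made RNA (SE; limma adjusted p = 4.01e-05) and was 2.27-fold lower in total RNA (adjusted p = 0.000115). Ppargc1b, its relative, fell by 0.76 ± 0.16 in newly made and by 0.75 ± 0.16 in total RNA (limma adjusted p = 0.00663 and 0.0136). Of the 24 assembly factors Tfb1m, the methyltransferase of the small subunit ribosomal RNA, passed in newly made RNA (-0.63 ± 0.12, limma adjusted p = 0.00374). Of the 94 respiratory chain genes 1 was lower in either kind of RNA. No gene of the translation factor, synthetase, mitochondrial DNA transcription or cytosolic ribosomal protein lists passed in either kind of RNA at 2 h.

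**Figure D3:**
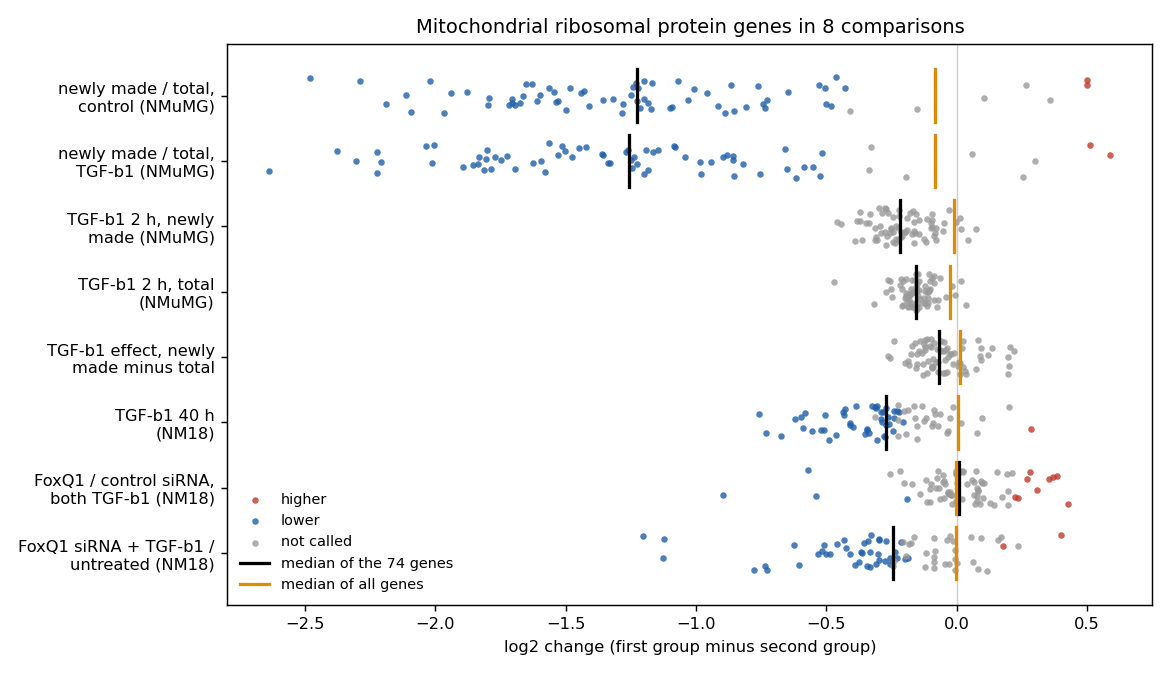
Log2 change of each of the 74 genes (points, scattered vertically for visibility) in the 8 comparisons, coloured by the limma call at an adjusted p under 0.05, with the median of the 74 genes (black) and of all genes (orange). The black lines lie at -1.23 and -1.26 for newly made against total RNA, at -0.27 for TGF-b1 in NM18 cells and at 0.01 for FoxQ1 siRNA.

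In NM18 cells, TGF-b1 for 40 h was compared with no TGF-b1 under control siRNA, which reads the state of cells after prolonged exposure. Mitochondrial ribosomal protein genes were lower in part of the list: 45 of the 74 fell and 1 rose by limma. Of all 12393 genes 17.5% fell and 13.2% rose, and of those above the median signal 27.7% fell and 22.4% rose. The median over the 74 was -0.27 against 0.005 over all genes, so the falls were small, and 69 of the 74 values were below 0. They came from both subunits, with 27 of 47 Mrpl and 18 of 27 Mrps genes, and from genes with (23 of 41) and without (22 of 33) a bacterial counterpart. In 51 of the 74 genes all TGF-b1 arrays lay below all untreated arrays, against 22.6% of all genes.

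Mrpl42, a mitochondria-specific large subunit protein, fell the most. Mrpl42 read 11.50, 11.36 and 11.49 without and 10.65, 10.71 and 10.70 with TGF-b1 (-0.76 ± 0.08, SE; 1.69-fold). Mrpl18, a protein of the central protuberance of the large subunit, read 11.07, 10.92 and 10.87 against 10.32, 10.18 and 10.16 (-0.73 ± 0.08). In both genes every TGF-b1 array lay well below every untreated array. Mrps28 read 10.56, 10.38 and 10.65 against 9.84, 9.85 and 9.87 (-0.68 ± 0.08). Mrps6, the homologue of bacterial S6, read 9.98, 9.95 and 10.02 against 9.31, 9.44 and 9.34 (-0.62 ± 0.09). Mrpl50 read 9.87, 9.95 and 10.06 against 9.20, 9.49 and 9.40 (-0.60 ± 0.11). The arrays of these genes did not overlap, and each stayed called in all 15 alternatives run, with limma adjusted p from 3.46e-05 (Mrpl18) to 0.00130 (Mrpl50). Mrps28, Mrps6, Mrpl42 and Mrpl50 were also, after Mrps35, the genes of smallest p at 2 h in newly made RNA, where none passed.

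Mrps12 was the gene that rose. It read 10.05, 10.07 and 10.08 without and 10.41, 10.24 and 10.40 with TGF-b1 (0.28 ± 0.09, SE; limma adjusted p = 0.0250). All TGF-b1 arrays were higher, and the call was lost in 5 of 15 alternatives. Its head-to-head neighbour Sars2 did not pass (-0.13 ± 0.08). Among the genes with particular roles, Mrpl12 fell by 0.43 ± 0.08, Mrps18a by 0.39 ± 0.06, Mrps18c by 0.31 ± 0.06, Mrps30 by 0.26 ± 0.09 and Mrps36 by 0.24 ± 0.06, and Mrps18b did not pass (-0.13 ± 0.06). Of the facing pair Mrpl46 and Mrps11 neither passed (-0.09 ± 0.06 and -0.10 ± 0.07). Of the 11 genes with the longer ETS site 10 were lower and 1, Mrpl43, did not pass. Of the 8 with the NRF1 core 3 were lower, of the 37 with the ETS core 21, and of all 65 with a promoter 38, a comparison made after these values were seen and not tested.

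**Figure D4:**
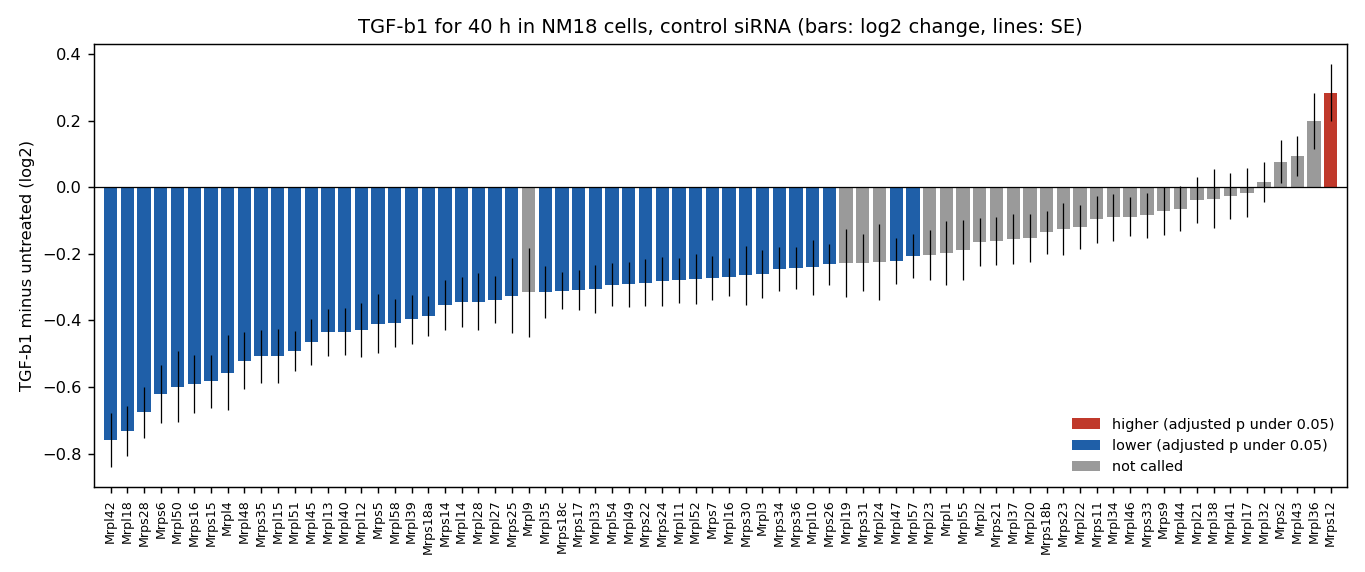
Change with 40 h of TGF-b1 in NM18 cells under control siRNA (log2, bars from 0) with SE (lines) for each of the 74 genes, ordered by size and coloured by the limma call. Called falls grade from -0.76 for Mrpl42 to -0.21, and Mrps12 stands alone as a called rise.

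Genes around the mitoribosome moved in NM18 cells as well, by limma. Of 11 genes of mitochondrial DNA transcription and RNA processing 7 were lower and 1 higher, with Tfam, the factor that packages mitochondrial DNA and starts its transcription, at -0.73 ± 0.08 (SE; adjusted p = 6.83e-05). Of 11 synthetase genes 6 were lower and 0 higher, with Tars2, the threonyl-tRNA synthetase gene, at -0.43 ± 0.08. Of 17 assembly factors 7 were lower and 0 higher, with Tfb1m at -0.69 ± 0.09. Of 9 translation factors 1 was lower (Oxa1l, the insertase of the inner membrane, -0.24 ± 0.07), and of the 4 mitoribosomal proteins with other symbols Chchd1 (-0.51 ± 0.07) and Dap3 (-0.28 ± 0.07) were lower. Among 10 regulators Ppargc1a was lower at -1.39 ± 0.17 (adjusted p = 0.000105) and Yy1 at -0.33 ± 0.09, while Ppargc1b was higher at 0.41 ± 0.10. Of nuclear respiratory chain genes 29 of 87 were lower and 0 higher (median -0.13), and of cytosolic ribosomal protein genes 3 of 45 were lower and 0 higher (median -0.04). Differences between lists were not tested.

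The falls at 40 h held in most settings. Across the alternatives 34 of the 46 calls were kept in every one. A replicate block, which the array numbers warrant here and the main fit left out, called 52 lower and 2 higher. Of the 53 further probe sets of these genes 18 were lower and 0 higher, and none was called against the probe set used. In sign, 40 of the 53 matched the probe set used. Their median change was smaller, at -0.12 over the 53. Without array 1 of control siRNA alone, whose free-text note speaks of TGF-b1, 37 were lower and 0 higher. Shares of all genes called with the block or without this array are not given here.

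Between NMuMG cells at 2 h and NM18 cells at 40 h, 65 of the 74 genes had values below 0 in both newly made RNA and NM18 RNA, and 67 in both total and NM18 RNA. Across the 74 genes the sizes of change correlated at r = 0.253 (newly made) and -0.044 (total) with those in NM18 cells, and across all 12393 genes at 0.522 and 0.442. The tables share no arrays, but line, time, kit and array type differ together and cannot be told apart.

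FoxQ1 siRNA was compared with control siRNA in TGF-b1-treated NM18 cells, which asks which genes depend on the factor there. Of the 74 genes 9 were higher (12.2%) and 4 lower (5.41%) by limma. Among all genes 11.3% were higher and 8.28% lower, and among those above the median signal 19.2% and 14.8%. The shares of the 74 were thus near those of all genes and below those of the genes above the median signal. The median was 0.01 over the 74 and -0.005 over all genes. The higher genes were Mrpl41, Mrpl24, Mrpl39, Mrpl50, Mrpl18, Mrps16, Mrpl40, Mrpl22 and Mrps18c, and the lower ones Mrpl33, Mrpl4, Mrps15 and Mrpl16. All 4 lower genes have a bacterial counterpart, as have 5 of the 9 higher ones and 41 of all 74, a difference that was not tested.

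Mrpl33, a small protein of the large subunit, read 10.79, 10.68 and 10.77 with control siRNA and 9.76, 9.80 and 9.99 with FoxQ1 siRNA (-0.90 ± 0.07, SE; limma adjusted p = 1.17e-05), or 1.86-fold lower. It was the gene that moved most among the 74, with its groups well apart. Mrpl4 read 9.65, 9.82 and 9.85 against 9.03, 9.25 and 9.33 (-0.57 ± 0.11), and Mrps15 10.07, 10.10 and 10.06 against 9.41, 9.61 and 9.59 (-0.54 ± 0.08). Mrpl16, which lies near the catalytic centre, read 11.27, 11.37 and 11.30 against 11.10, 11.10 and 11.16 (-0.19 ± 0.06). None of these overlapped. Mrpl33, Mrpl4 and Mrps15 stayed called in all 15 alternatives, and Mrpl16 in 8.

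Of the genes that were higher, Mrpl41, a mitochondria-specific large subunit protein, read 10.60, 10.65 and 10.51 with control siRNA and 11.00, 11.10 and 10.93 with FoxQ1 siRNA (0.43 ± 0.07, SE; limma adjusted p = 0.00136). Mrpl24 read 9.70, 9.97 and 10.03 against 10.16, 10.39 and 10.31 (0.38 ± 0.11), and Mrpl39 11.26, 11.39 and 11.32 against 11.58, 11.82 and 11.68 (0.37 ± 0.07). The groups did not overlap in any of them. Mrpl50 read 9.20, 9.49 and 9.40 against 9.60, 9.94 and 9.61 (0.35 ± 0.11), and Mrpl18 10.32, 10.18 and 10.16 against 10.53, 10.60 and 10.46 (0.31 ± 0.08), again without overlap. Smaller rises were those of Mrps16 (0.28 ± 0.09), Mrpl40 (0.27 ± 0.07), Mrpl22 (0.24 ± 0.07) and Mrps18c (0.22 ± 0.06). Mrpl41 and Mrpl39 stayed called in all 15 alternatives.

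These genes can be set beside their TGF-b1 change, which uses the same control siRNA arrays with TGF-b1, so that the values are not independent. Mrpl18, Mrpl39, Mrpl40, Mrpl50, Mrps16 and Mrps18c were called lower with TGF-b1 and higher with FoxQ1 siRNA. Mrpl33, Mrpl4, Mrps15 and Mrpl16 were called lower in both, at -0.31, -0.56, -0.58 and -0.27 with TGF-b1. Mrpl41, Mrpl22 and Mrpl24 did not pass with TGF-b1 (-0.03, -0.12 and -0.22) and were higher with FoxQ1 siRNA. The remaining 35 genes called lower with TGF-b1, Mrpl42, Mrps28 and Mrps6 among them, did not pass with FoxQ1 siRNA, and nor did Mrps12 (-0.05 ± 0.09).

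**Figure D5:**
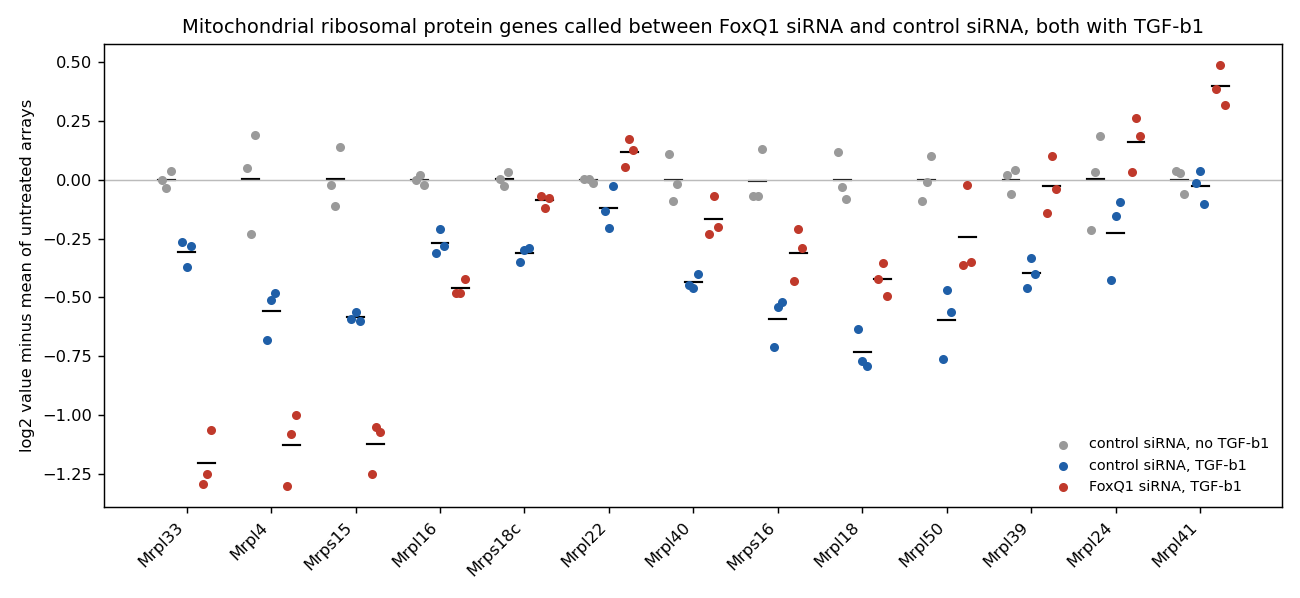
Log2 signal of the 13 genes called between FoxQ1 and control siRNA, less the mean of the untreated arrays, for the 3 arrays of each NM18 group (points) with group means (lines). Mrpl33, Mrpl4 and Mrps15 step down from group to group to means of -1.20, -1.13 and -1.12, while Mrpl41 stays near 0 with TGF-b1 and lies at 0.40 with FoxQ1 siRNA.

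These counts moved with the arrays used. A replicate block called 12 higher and 6 lower. Without array 1 of control siRNA with TGF-b1, 3 were higher and 3 lower. Without array 2 of that group or array 2 of FoxQ1 siRNA, 4 were higher and 3 lower. Array 1 of FoxQ1 siRNA was the lowest of 3 for 51 of the 74 genes, and array 1 of control siRNA with TGF-b1 for 41. Without the former, 8 were higher and 3 lower. Shares of all genes called in these fits are not given here, so the counts are not set against them.

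The regulators and partners were mostly not called under FoxQ1 siRNA by limma, with some exceptions. Tfam was lower at -0.56 ± 0.08 (SE; adjusted p = 0.000789), and the GABP subunit genes Gabpb1 and Gabpa were lower at -0.52 ± 0.08 and -0.40 ± 0.07. Esrra, which encodes an estrogen-related receptor that works with PGC-1alpha, was higher at 0.38 ± 0.08. Of 9 translation factors Mtfmt, which makes the formylated initiator tRNA, was higher (0.43 ± 0.07) and the elongation factor gene Gfm1 lower (-0.40 ± 0.07). Of 45 cytosolic ribosomal protein genes 5 were lower and 0 higher, with a median of -0.14, and of 87 respiratory chain genes 9 were higher and 3 lower.

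FoxQ1 siRNA with TGF-b1 was also set against untreated control siRNA, a comparison that sums both changes and shares arrays with each. Of the 74 genes 41 were lower and 2 higher by limma (18.6% and 19.3% of all genes, and 29.9% and 31.6% of those above the median signal), with a median of -0.24. Mrpl33 fell the most at -1.20 ± 0.07 (SE), or 2.30-fold, followed by Mrpl4 at -1.13 ± 0.11 and Mrps15 at -1.12 ± 0.08, then Mrpl48 at -0.78 ± 0.09 and Mrpl42 at -0.73 ± 0.08. Mrpl48 read 9.33, 9.13 and 9.47 in untreated arrays and 8.45, 8.57 and 8.58 with FoxQ1 siRNA and TGF-b1, without overlap. Mrpl41 (0.40 ± 0.07) and Mrpl43 (0.18 ± 0.06) were higher. Of the 6 genes with opposite calls in the other comparisons, Mrpl18 and Mrps16 were still lower than untreated, and Mrpl39, Mrpl40, Mrpl50 and Mrps18c did not pass. Without array 1 of control siRNA alone 33 were lower and 1 higher. Shares of all genes called without this array are not given here.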

How the data were processed

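The authors deposited 1 value table per array set, with values that run from 2.34 to 14.8 (NMuMG) and from 4.57 to 14.6 (NM18) and were taken as log2 from this range, since no label states the scale. The submitters' processing notes list affy 1.18.2 with no role, and the background correction, summarisation and normalization were not given in the sources used here. Per the labels' protocols, NMuMG RNA was amplified in a two-round kit and NM18 RNA with a 3′ kit, so levels were never tested across tables. Probe sets with 1 gene symbol in the platform annotation were used (156 and 127 for the genes described). Group means were fitted with limma 3.58.1 in R 4.3.3 (lmFit, eBayes; 1 fit per table over all groups, two-sided), with Benjamini-Hochberg adjustment over all genes and a call at an adjusted p under 0.05. The genes, lists and motifs were chosen with earlier results of these data known, and the YY1 motif was shortened by its last base after a first count. Values by array are given for up to 5 called genes with the largest rise and fall of a comparison, or the 3 with the smallest p where fewer than 3 were called, and for a fixed set with particular roles. Array numbers paired the arrays where every same-numbered pair correlated above 0.1 (deviations from group means: 0.160 to 0.608 in NM18, 0.339 to 0.732 in newly made and 0.122 to 0.407 in total RNA with and without TGF-b1), but not between newly made and total RNA (lowest 0.022 and 0.012). Differently numbered pairs reached at most -0.040 in NM18, 0.347 in newly made and 0.0028 in total RNA with and without TGF-b1. The main fits took no account of array numbers. Alternatives were median centring, quantile normalization, the mean of all probe sets, genes above the median signal, only the groups compared, replicate blocks and leaving out each array. Tested on simulated data with 100 genes changed by 0.5 and 100 by 1 on the log2 scale, 23 and 87 were called for TGF-b1 in newly made RNA and 78 and 98 for TGF-b1 in NM18 cells. Simulated noise was drawn independently for each gene and array, without the shifts shared by many genes seen on some arrays. Changes smaller than 0.5 were not simulated.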

Additional observations from a re-analysis of the deposited data

Results flagged for a closer look

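Mrpl36, a small protein of the large subunit of bacterial descent, had values of opposite direction under TGF-b1 in the 2 lines. In total RNA of NMuMG cells at 2 h its change was -0.25 (log2), with 8.81, 8.56 and 8.69 in the TGF-b1 arrays. All lay below the control arrays at 8.82, 8.81 and 9.17, but barely so at the closest (8.806 against 8.810). Without control array 3, which stood apart for most of these genes, the change was -0.13. In NM18 cells at 40 h the change was 0.20, with 10.03, 9.99 and 10.17 in the TGF-b1 arrays, all above the untreated arrays at 9.75, 9.92 and 9.92. Neither change passed the limma test, and the difference between them was not tested. Opposite directions were not particular to Mrpl36. The 5 genes with values above 0 in NM18 cells were Mrpl32, Mrpl36, Mrpl43, Mrps2 and Mrps12. All of them were below 0 in total RNA at 2 h.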

How the results depend on the processing

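The number of genes called stayed within 1.5 times the value reported under the alternatives run, with the exceptions given here. For the replicate blocks, averaged probe sets and left-out arrays, shares of all genes called are not given, so these counts are not set against them. For TGF-b1 at 2 h in newly made RNA the count of 0 became 8 with replicate blocks fitted separately for the 2 kinds of RNA, an alternative added later, and ran from 0 to 5 when each array was left out. In total RNA it became 1 with those blocks and 1 when probe sets were averaged, and was 0 whichever array was left out. The difference of these effects gave 0 throughout, the replicate block (0) included. For FoxQ1 siRNA the count of 13 ran from 6 to 14 over the left-out arrays and was 18 with the replicate block. The other counts ran from 35 to 47 for TGF-b1 in NM18 cells (46 with all arrays, block 54), from 33 to 45 for FoxQ1 siRNA with TGF-b1 against untreated cells (43, block 51), from 64 to 70 for the newly made fraction against total RNA without TGF-b1 (69, block 71) and from 68 to 69 with it (68, block 69). Medians over the 74 genes ran from -0.30 to -0.15 for newly made RNA at 2 h, from -0.23 to -0.016 for total RNA, from -0.20 to 0.013 for their difference, from -0.30 to -0.24 for NM18 cells, from -0.0048 to 0.041 for FoxQ1 siRNA, from -0.28 to -0.21 for FoxQ1 siRNA with TGF-b1 against untreated, and from -1.32 to -1.12 and -1.33 to -1.21 for the fractions in control and treated cells. Among single genes, Mrpl3 (0.021) and Mrps9 (0.089 in control and 0.089 in treated cells) changed direction between newly made and total RNA when all probe sets of a gene were averaged. Both genes had a further probe set called in the opposite direction to the one used, and the cause was not tested. With 3 arrays a group, the number of arrays limits which small changes can be called.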
